A study of Mus musculus with 32 samples.

Results

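Protein kinase C (PKC) is a family of serine/threonine kinases that phosphorylate receptors, ion channels and proteins of the cytoskeleton. Conventional isoforms (alpha and beta among them) need calcium and diacylglycerol, the calcium-independent isoforms (delta, epsilon, eta and theta) need diacylglycerol alone, and atypical isoforms (zeta and iota) need neither and are steered by scaffold proteins. In neurons, diacylglycerol comes from phospholipase C after receptors coupled to Gq are stimulated. The epsilon isoform is known from knockout mice for altered responses to ethanol.

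The probes were chosen by a gene symbol that begins with Prkc followed by a letter, which gave 17 of the array's 25697 probes under 13 symbols, and 16 of them under 12 symbols are described here. Of these, 11 probes under 9 symbols are named for an isoform. Prkca and Prkcb encode conventional isoforms, and Prkcd, Prkce, Prkch and Prkcq the calcium-independent ones. Prkci and Prkcz encode the atypical isoforms, and Prkcz has 3 probes. Prkcm, once called PKC mu, is protein kinase D1 (now Prkd1), which also binds diacylglycerol but belongs to another kinase family. The remaining 5 probes under 3 symbols share only the name. Prkcbp1, with 2 probes, is the chromatin reader Zmynd8. Prkcdbp, with 2 probes, is the caveolar coat protein Cavin3. Prkcsh is the beta subunit of glucosidase II, an enzyme of the endoplasmic reticulum.

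The samples were the frontal cortex (FCtx) of 32 female F1 hybrids, labelled C57BL/6J x FVB/NJ, with 1 mouse on each Illumina MouseRef-8 array. The 20 ethanol-treated mice drank 20% ethanol by free choice beside water, in limited sessions on 20 days, and the 12 control mice had no ethanol. Arrays sat on 4 chips of 8. Chips 1 and 2 carried only ethanol-treated mice, chip 4 carried only controls, and chip 3 carried 4 of each, with controls at the even positions (B, D, F, H) and ethanol at the odd ones (A, C, E, G). Treatment therefore cannot be told apart from chip on chips 1, 2 and 4, nor from position on chip 3. The question was which isoform transcripts differed in the cortex after drinking.

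The probes are 50 bases long, and stretches of 30 bases are shown to make clear which transcript each value reports. The first bases of the probes for Prkcb and Prkce, whose values moved with treatment, chip or position, are as follows.
Prkcb: tcctggaaccacatggtcactctagccagg
Prkce: ctgtgtggcagcgcagaacggggaggacgc

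The 3 Prkcz probes read different parts of the gene's transcripts, which is why they are shown together. The array's annotation places the first at base 248 of the record for transcript variant 2 and marks it as specific to some transcripts. It places the second at base 1909 of the record for variant 1 and does not mark it as specific to a variant, so its value cannot be assigned to variant 1 alone. The third, at base 4030 of the variant 2 record, is marked as shared by all transcripts. Its last 30 bases hold the letters ATTAAA (in capitals), a common form of the polyadenylation signal, which 0.782% of all 25697 probes hold in their last 30 bases, searched on the strand as listed.
Prkcz variant 2 probe, first bases: ggaagatgcctccttgcacgcccaccttcg
Prkcz variant 1 record probe, first bases: catcaacccacttctgctgtctgctgagga
Prkcz shared probe, last bases: cgttcttactcttgcacatccATTAAAgac

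Overlapping probes are not independent. The probes of Prkcbp1 share 8 bases, in capitals in the end of the upstream probe and the start of the downstream probe. The Prkcm probe shares 47 bases, in capitals as far as shown, with a probe listed under Prkd1, and was the only one of the 16 with a run of 20 bases or more in common with another probe of the array.
Prkcbp1 upstream probe, last bases: ttctgggactaggggtgcattgTGAGCCAG
Prkcbp1 downstream probe, first bases: TGAGCCAGaacacctccctataggcgggag
Prkcm: catGAGGGTAGTGCAGTCTGTGAAGCACAC
Prkd1: GAGGGTAGTGCAGTCTGTGAAGCACACGAA

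The GC content of the tested Prkc probes ran from 50% to 70%, with a median of 56%, against a median of 54% over all tested probes. The highest, 70%, was that of the upstream Prkcdbp probe. The Prkci probe, which was not detected on any array, had 22%.

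A probe counted as detected on an array when its detection p-value against negative control beads was below 0.01, and it was tested when detected on at least 24 of the 32 arrays. By this filter 11 of the 16 probes were tested, and all 11 were detected on all 32 arrays. They cover 4 isoform symbols by 6 probes (Prkcb, Prkcd, Prkce and 3 for Prkcz) and all 5 probes of the name-sharing genes. The other 5 were Prkca, Prkch, Prkci, Prkcm and Prkcq. The Prkca probe was detected on 21 arrays, 12 of ethanol-treated mice and 9 of controls. Its signal before normalization ran from 188 to 232 in ethanol-treated mice (median 206) and from 154 to 215 in controls (median 185), so the ranges overlapped. The Prkcq probe was detected on 2 arrays, both of controls, the Prkch probe on 1 control array and the Prkcm probe on 1 ethanol array. The Prkci probe was detected on 0 arrays, with signals between 125 and 179. On the normalized log2 scale Prkca averaged 7.57 ± 0.08 (SD, n = 20) with ethanol and 7.60 ± 0.11 (SD, n = 12) in controls, with no test. None of these 5 was tested, and a dim probe does not show that a transcript is lacking.

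**Figure D1:**
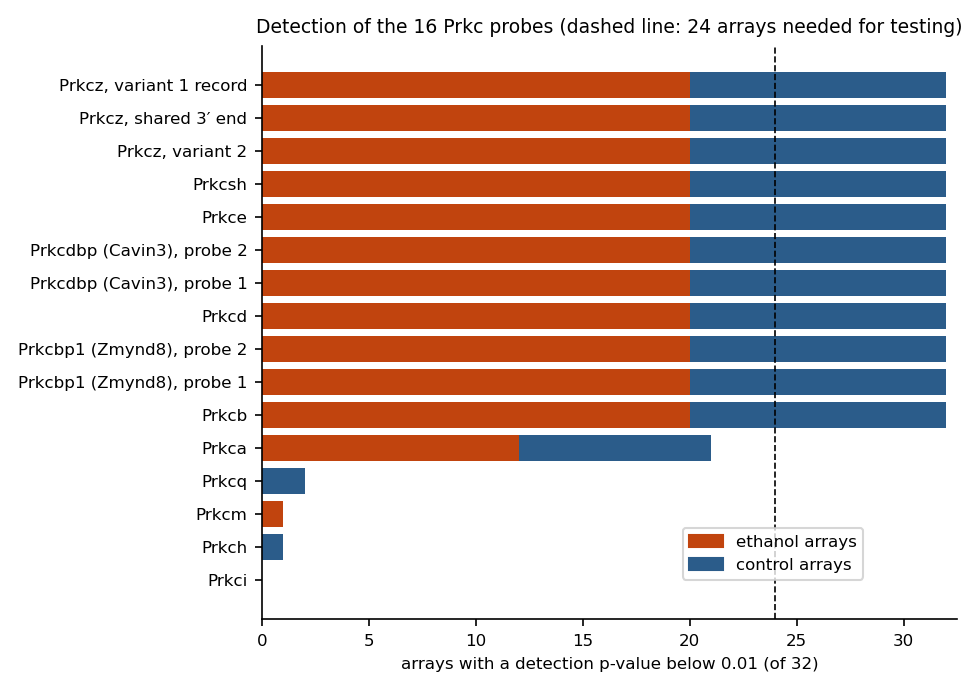
Number of arrays, of 32, on which each of the 16 Prkc probes had a detection p-value below 0.01, with ethanol arrays in orange and control arrays in blue; the dashed line marks the 24 arrays needed for testing. The 11 tested probes reach 32 arrays, Prkca stops at 21 and the other 4 at 2 or fewer.

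Between 9480 and 11544 probes were detected per array, and the lowest, control mouse 66 on chip 4, stood apart from the next at 10637. Its Prkcb signal before normalization was 3652, against 7054 to 11193 in the other controls. The median signal over probes was lower in controls (146 to 187, median 165) than with ethanol (166 to 203, median 184). The lower values lay on chip 4, whose controls ran from 146 to 168. On chip 3 the controls ran from 177 to 187 and the ethanol-treated mice from 166 to 188. Without mouse 66 the Prkcb difference given below was 0.21 (adjusted p = 0.00297 by limma) and that of Prkce 0.22 (adjusted p = 0.0829 by limma). Over all tested probes on all arrays, 373 were higher and 462 lower in ethanol-treated mice at an FDR below 1%. When arrays were scaled to a common median instead of quantile-normalized, these counts were 134 and 12, with all differences centred at 0.05. Markers of cortical tissue were present, but 3 of the 6 tested markers of glutamatergic cortical neurons (of 8 listed) were lower in ethanol-treated mice at an FDR below 1%. Of all genes tested, 4.82% were lower at that FDR. The mean level of that list ran from 10.07 to 10.26 in ethanol-treated mice and from 10.18 to 10.48 in controls. On chip 3, 2 of the 6 (Slc17a7 and Tbr1) were lower at an FDR below 1%, with mean levels of 10.11 to 10.23 against 10.265 to 10.48. Rorb alone of that list had positive differences, of 0.06 over all arrays and 0.05 on chip 3. Of 4 tested markers of olfactory bulb neurons (Eomes and Tbx21 were not tested), 0 passed on all arrays by limma. At an unadjusted p below 0.05 there were 0 of these 4, beside 2445 of all 7926 genes. On chip 3 Cdhr1 and Doc2g of that list were higher with ethanol at an FDR below 1%, and its mean level was 8.43 to 8.76 in ethanol-treated mice and 7.68 to 8.30 in controls. Of the astrocyte markers, 3 of 7 were higher on chip 3 at an FDR below 1%, while Aldh1l1 gave -0.16 and Aldoc -0.01 there. The mean levels of the list on chip 3 were 11.20 to 11.28 against 10.99 to 11.09. Over all arrays Aqp4 rose by 0.55, but the list median was 0.01, and Gjb6 (-0.07), Aldh1l1 (-0.03) and Aldoc (-0.01) were lower. Of the markers of GABAergic interneurons, 1 of 6 (Gad1) was higher on chip 3, with mean levels of the list of 11.80 to 11.85 against 11.60 to 11.70. Pvalb alone of that list had a negative difference there (-0.08). Of those of oligodendrocytes, 2 of 7 were lower on chip 3, with overlapping mean levels of 10.68 to 10.90 and 10.82 to 11.55. Endothelial markers had 1 of 6 (Cldn5) higher on chip 3, while Ly6c1 gave -0.12 and Slco1a4 -0.07 there. Over all arrays Cldn5 gave -0.07. All these chip 3 counts are at an FDR below 1%, which 3.39% of all genes passed there in either direction. The part of these shifts in the values below was not tested, and fewer cells of a type and less RNA per cell cannot be told apart in tissue.

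Prkcb was the isoform transcript whose difference between the groups passed the strictest test. This probe, on chromosome 7, gave log2 values from 13.16 to 13.54 in the 20 ethanol-treated mice (median 13.35) and from 12.92 to 13.35 in the 12 controls (median 13.14). The ranges overlapped, but all 20 ethanol-treated mice lay above the control median and 11 of 12 controls lay below the ethanol median. Prkcb averaged 13.35 ± 0.13 (SD, n = 20) with ethanol and 13.13 ± 0.13 (SD, n = 12) in controls, a rise of 0.23 on the log2 scale (standard error 0.05, 1.17-fold, adjusted p = 0.000988 by limma). The beta isoform is abundant in forebrain neurons. Leaving out any single mouse kept the Prkcb difference between 0.21 and 0.25, with adjusted p-values of 0.00297 or less by limma. With median scaling it was 0.28 (adjusted p = 0.0356 by limma), past the threshold of 10% and not that of 1%.

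Of the 11 tested Prkc probes, 1 passed an FDR of 1% over all arrays, beside 8.2% of all 10187 probes tested. A looser rule, called the 10% rule here, asked for an FDR below 10% and a change of 1.1-fold or more, and 5 of the 11 passed it, beside 17.1% of all probes. Of these 5, 2 read isoforms (Prkcb and Prkce) and 3 read name-sharing genes (both Prkcbp1 probes and the downstream Prkcdbp probe). The median difference of the 11 probes was 0.03, against -0.0036 over all tested probes.

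Within chip 3, Prkcb read 13.46, 13.45, 13.19 and 13.27 in ethanol-treated mice 46, 47, 49 and 50. The controls 52, 54, 55 and 56 read 13.12, 13.32, 13.16 and 13.08. The highest control lay above the lower ethanol-treated mice, so the groups overlapped. The Prkcb difference on chip 3 was 0.17 (95% interval 0.01 to 0.33) and did not pass limma's adjustment (adjusted p = 0.17). The exact two-sided permutation test over 70 regroupings gave p = 0.114, where the smallest p it can give is 0.0286.

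Between chips 1 and 2 and chip 4, the Prkcb difference was 0.25 (standard error 0.06, adjusted p = 0.00203 by limma). It was 0.28 at odd positions and 0.22 at even positions, with adjusted p-values of 0.0221 and 0.0445 by limma. Within chips 1, 2 and 4, where treatment does not vary, Prkcb fell by 0.16 from odd to even positions (adjusted p = 0.0237 by limma). On chip 3 the ethanol-treated mice held the odd positions, so treatment and position cannot be told apart there, and the part of position was not tested. With chip as a fixed block and position as a covariate, the Prkcb difference was 0.01 (adjusted p = 0.984 by limma). With chip alone as the block it was 0.17 (adjusted p = 0.302 by limma). Both fits take the treatment difference from chip 3 alone, and the first shifts it by the position difference of the other chips. They are therefore not separate evidence beside the chip 3 and position values above.

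Prkce, the calcium-independent isoform epsilon on chromosome 17, was higher with ethanol over all arrays but not within chip 3. Its log2 values ran from 8.40 to 9.27 with ethanol (median 8.81) and from 7.98 to 8.89 in controls (median 8.63). The ranges overlapped, with 17 of 20 ethanol-treated mice above the control median. Prkce averaged 8.82 ± 0.23 (SD, n = 20) with ethanol and 8.58 ± 0.30 (SD, n = 12) in controls, a difference of 0.24 (standard error 0.08, 1.18-fold, adjusted p = 0.0396 by limma). It passed the 10% rule and not the 1% rule. Leaving out control mouse 64, the lowest at 7.98, lowered the difference to 0.19 with an adjusted p of 0.101 by limma.

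The Prkce difference passed limma's adjustment between chips and not on chip 3. On chip 3, ethanol-treated mice 46, 47, 49 and 50 read 8.98, 8.91, 8.40 and 8.83, and controls 52, 54, 55 and 56 read 8.89, 8.83, 8.86 and 8.71. These values were intermixed, with a difference of -0.04 (95% interval -0.25 to 0.17, exact permutation p = 0.886). Leaving out each of the 8 mice in turn gave -0.11 to 0.08. Between chips 1 and 2 and chip 4 the difference was 0.37 (standard error 0.10, adjusted p = 0.00489 by limma), 0.25 at odd positions and 0.50 at even positions. The chip 3 difference minus the difference between chips was -0.42 (95% interval -0.78 to -0.06), with an adjusted p of 0.125 by limma.

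Controls at even positions differed in Prkce between chips 3 and 4. There the 4 controls of chip 3 ran from 8.71 to 8.89 and the 4 controls of chip 4 from 7.98 to 8.34, with no overlap. The 4 controls of chip 4 at odd positions ran from 8.45 to 8.88, which overlapped the controls of chip 3. The difference at even positions was 0.59 (standard error 0.09, 1.5-fold, adjusted p = 0.00135 by limma), and no mouse in it had ethanol. It shares the even controls of chip 4 with the difference of 0.50 given above, and the part of chip was not tested. Of the 11 Prkc probes, 1 passed an FDR of 1% in this comparison of controls, beside 1.25% of all probes. At the 10% rule 3 of the 11 passed, beside 10.8% of all probes, the others being the Prkcz variant 2 probe at -0.25 and the upstream Prkcbp1 probe at 0.29. For Prkcb the same comparison gave 0.12 (95% interval -0.05 to 0.30).

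Prkce also fell from odd to even positions within chips 1, 2 and 4, by 0.27 (standard error 0.08, adjusted p = 0.0203 by limma). With chip as a fixed block and position as a covariate, the ethanol difference of Prkce was -0.31 (adjusted p = 0.521 by limma), the opposite sign to that over all arrays.

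**Figure D2:**
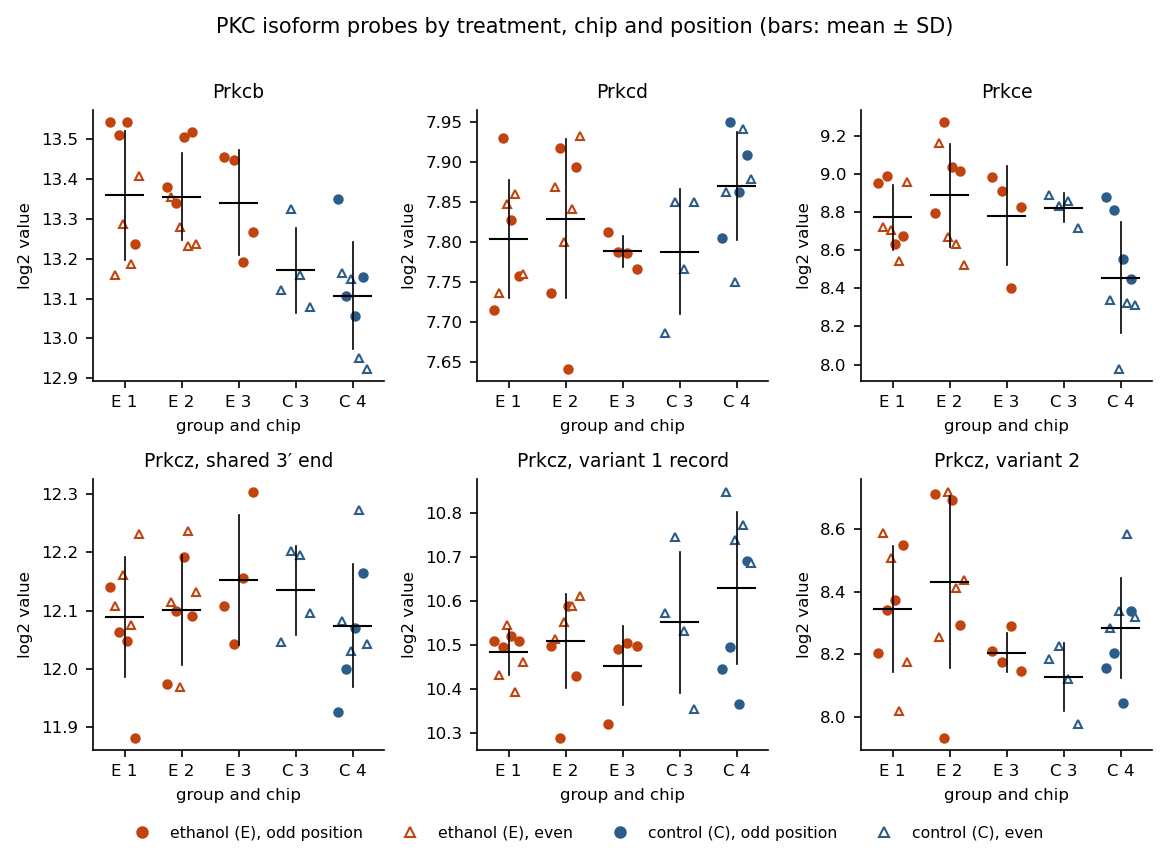
Normalized log2 values of the 6 tested isoform probes in each mouse, by treatment (E ethanol, C control) and chip (1 to 4), with filled circles for odd and open triangles for even positions; horizontal and vertical bars are the mean and SD of each set of 4 or 8 mice, and each panel has its own axis. Prkcb is higher in the ethanol sets than in both control sets, whereas Prkce of the chip 3 controls (8.71 to 8.89) lies within the ethanol sets and chip 4 lies lowest.

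Of the 11 Prkc probes, 0 passed an FDR of 1% between even and odd positions by limma, beside 3.24% of all probes. At an unadjusted p below 0.05 there were 5 of the 11, with no share over all probes given here. By the 10% rule 4 passed, beside 14.6%. The 4 were Prkcb, Prkce and both Prkcbp1 probes, which fell toward even positions. With median scaling 0 of the 11 passed either rule by limma, as did 0 of all probes at 1%. With that scaling 4 of the 11 and 1451 of all 10187 probes had an unadjusted p below 0.05.

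Prkcd, the delta isoform on chromosome 14, varied the least among the 6 isoform probes. Its log2 values ran from 7.64 to 7.93 with ethanol (median 7.81) and from 7.69 to 7.95 in controls (median 7.86). The groups overlapped almost completely, with 6 of 20 ethanol-treated mice above the control median. The Prkcd difference was -0.03 (95% interval -0.10 to 0.04, adjusted p = 0.553 by limma). On chip 3 it was 0.0002 (95% interval -0.14 to 0.14), and between even and odd positions 0.01. Its SD among mice of the same treatment, chip and position was 0.08, against a median of 0.12 over all tested probes and a bead error of 0.07. Before normalization its signal ran from 205 to 279 with ethanol and from 168 to 259 in controls, overlapping that of the untested Prkca probe. Such a low signal limits what the small spread and difference of Prkcd can show.

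The Prkcz probes, on chromosome 4, gave differences of different sign. The shared probe of this atypical isoform gave log2 values from 11.88 to 12.30 with ethanol (median 12.11) and from 11.93 to 12.27 in controls (median 12.08). Its difference of 0.01 (95% interval -0.07 to 0.09) did not pass limma (adjusted p = 0.858). The variant 2 probe ran from 7.93 to 8.72 with ethanol (median 8.32) and from 7.98 to 8.58 in controls (median 8.22), a difference of 0.12 (95% interval -0.02 to 0.26, adjusted p = 0.224 by limma).

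The Prkcz probe on the variant 1 record was lower with ethanol, at 10.29 to 10.61 (median 10.50) against 10.35 to 10.85 (median 10.63), and 0 of 20 ethanol-treated mice lay above the control median. Its difference was -0.12 (95% interval -0.21 to -0.03), with an adjusted p of 0.0622 by limma, and at 1.08-fold it passed neither rule. Of the 12 controls, 4 lay below the ethanol median. Between chips 1 and 2 and chip 4 it was -0.02 at odd positions and -0.25 at even positions (adjusted p = 0.9 and 0.0171 by limma). The even controls of chip 4 ran from 10.68 to 10.85, and those of chip 3 from 10.35 to 10.75. On chip 3 the 3 probes (shared, variant 2 and variant 1 record) gave 0.02, 0.08 and -0.10, each with an exact permutation p of 0.314 or more. Brain is known for a short product of Prkcz that lacks the regulatory domain, and the files do not say which record encodes it.

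Across the isoforms, 6 probes were compared on chip 3 and 0 passed either rule by limma, with an unadjusted p below 0.05 for Prkcb alone. Over all 11 Prkc probes on chip 3, 1 passed an FDR of 1%, beside 3.26% of all probes, and 2 passed the 10% rule, beside 16.4%. Both were Prkcbp1 probes. Between chips 1 and 2 and chip 4, 3 passed an FDR of 1%, beside 11.7% of all probes (Prkcb, Prkce and Prkcsh), and 5 passed the 10% rule, beside 26.4%. Of the tests of the chip 3 difference against the difference between chips, 0 of 11 passed an FDR of 1% by limma, beside 3.16% of all probes. At an unadjusted p below 0.05 there were 2 of the 11, with no share over all probes given here. At the 10% rule 1 passed, beside 15.9%, and that was Prkcsh.

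**Figure D3:**
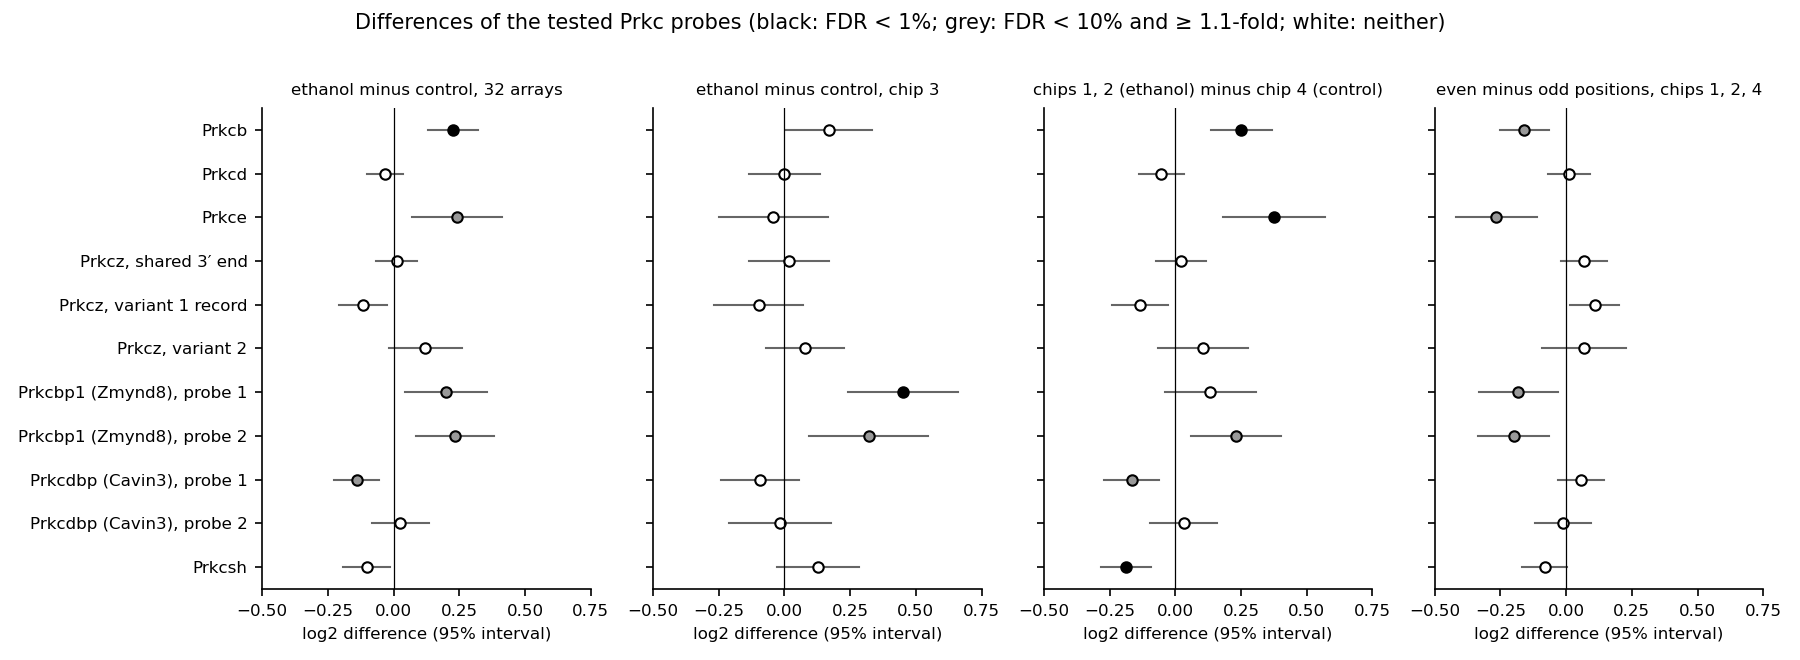
Log2 differences of the 11 tested Prkc probes with 95% intervals in 4 comparisons, ethanol minus control on all arrays, on chip 3 and between chips, and even minus odd positions; black points passed an FDR of 1%, grey points the 10% rule, and white points neither. Prkcb is right of 0 in the first 3 panels and left of 0 for position, and Prkce is at 0.37 between chips but at -0.04 on chip 3.

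Among the genes that share only the name, both probes of Prkcbp1 (Zmynd8, on chromosome 2) were higher with ethanol. The upstream probe ran from 9.24 to 9.97 with ethanol (median 9.47) and from 8.90 to 9.77 in controls (median 9.18), and all 20 ethanol-treated mice lay above the control median. Its difference was 0.24 (standard error 0.07, 1.18-fold, adjusted p = 0.0212 by limma). The downstream probe ran from 8.80 to 9.68 and from 8.59 to 9.46, with medians of 9.13 and 8.90 and a difference of 0.20 (standard error 0.08, adjusted p = 0.0632 by limma). Both passed the 10% rule, but the downstream probe lost it without control 62, 63 or 64, with adjusted p-values of 0.108 to 0.126 by limma. Between chips 1 and 2 and chip 4, the upstream probe gave 0.23 (adjusted p = 0.0417 by limma) and the downstream probe 0.13 (adjusted p = 0.269 by limma). At odd positions these were 0.10 and 0.04. Zmynd8 binds modified histones and was first described as a partner of PKC beta.

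On chip 3 the downstream Prkcbp1 probe read 9.68, 9.46, 9.13 and 9.23 in ethanol-treated mice 46, 47, 49 and 50 and 8.82, 9.10, 8.88 and 8.90 in controls 52, 54, 55 and 56. All 4 ethanol-treated mice lay above all 4 controls, although mouse 49 exceeded control 54 by little. The difference was 0.45 (standard error 0.10, 1.37-fold, adjusted p = 0.00898 by limma, exact permutation p = 0.0286, the smallest possible). Leaving out single mice of chip 3 kept it between 0.35 and 0.53, with adjusted p-values of 0.0067 to 0.0345 by limma, and it passed an FDR of 1% in 2 of 8 such fits (without mouse 49 or 50), not without mouse 46, 47, 52, 54, 55 or 56. With median scaling it was 0.42 (adjusted p = 0.0206 by limma) and with normexp background 0.58 (adjusted p = 0.055 by limma). Of all tested probes on chip 3, 279 passed an FDR of 1% with median scaling and 0 with normexp background. The upstream probe gave 0.32 on chip 3 (adjusted p = 0.0674 by limma), with overlapping groups. Both probes also fell toward even positions within chips 1, 2 and 4, by 0.18 (downstream) and 0.20 (upstream). On chip 3 the controls held the even positions, so treatment and position cannot be told apart there.

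Prkcdbp (Cavin3, on chromosome 7) had probes that differed from each other. Its downstream probe was lower with ethanol, at 8.87 to 9.33 (median 9.13) against 9.05 to 9.39 (median 9.25), with 2 of 20 ethanol-treated mice above the control median. The difference was -0.14 (standard error 0.04, adjusted p = 0.0169 by limma), and it passed the 10% rule. The call was lost when any of several single mice was left out, since the change then fell under the limit of 1.1-fold (-0.13 without control 59). With median scaling it was -0.07 (adjusted p = 0.555 by limma). The upstream probe gave 0.03 (95% interval -0.08 to 0.13, adjusted p = 0.787 by limma). On chip 3 they gave -0.09 and -0.02, each with an exact permutation p of 0.2 or more. Cavin3 was first described as a partner of PKC delta, whose own transcript did not pass any test here.

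Prkcsh, on chromosome 9, had differences of opposite sign on chip 3 and between chips. Its log2 values ran from 10.66 to 11.05 with ethanol (median 10.84) and from 10.74 to 11.09 in controls (median 10.97), with a difference of -0.10 (adjusted p = 0.103 by limma). On chip 3, ethanol-treated mice 46, 47, 49 and 50 read 10.77, 11.01, 11.05 and 10.97, and controls 52, 54, 55 and 56 read 10.82, 10.79, 10.74 and 10.95. There 3 of the 4 ethanol-treated mice were above all controls, with a difference of 0.13 (exact permutation p = 0.143). Between chips 1 and 2 and chip 4 Prkcsh fell by 0.19 (standard error 0.05, adjusted p = 0.00378 by limma). The difference of these differences was 0.32 (standard error 0.09, adjusted p = 0.0195 by limma). Among controls at even positions, those of chip 3 were lower than those of chip 4 by 0.17 on the log2 scale, which did not pass (adjusted p = 0.196 by limma).

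**Figure D4:**
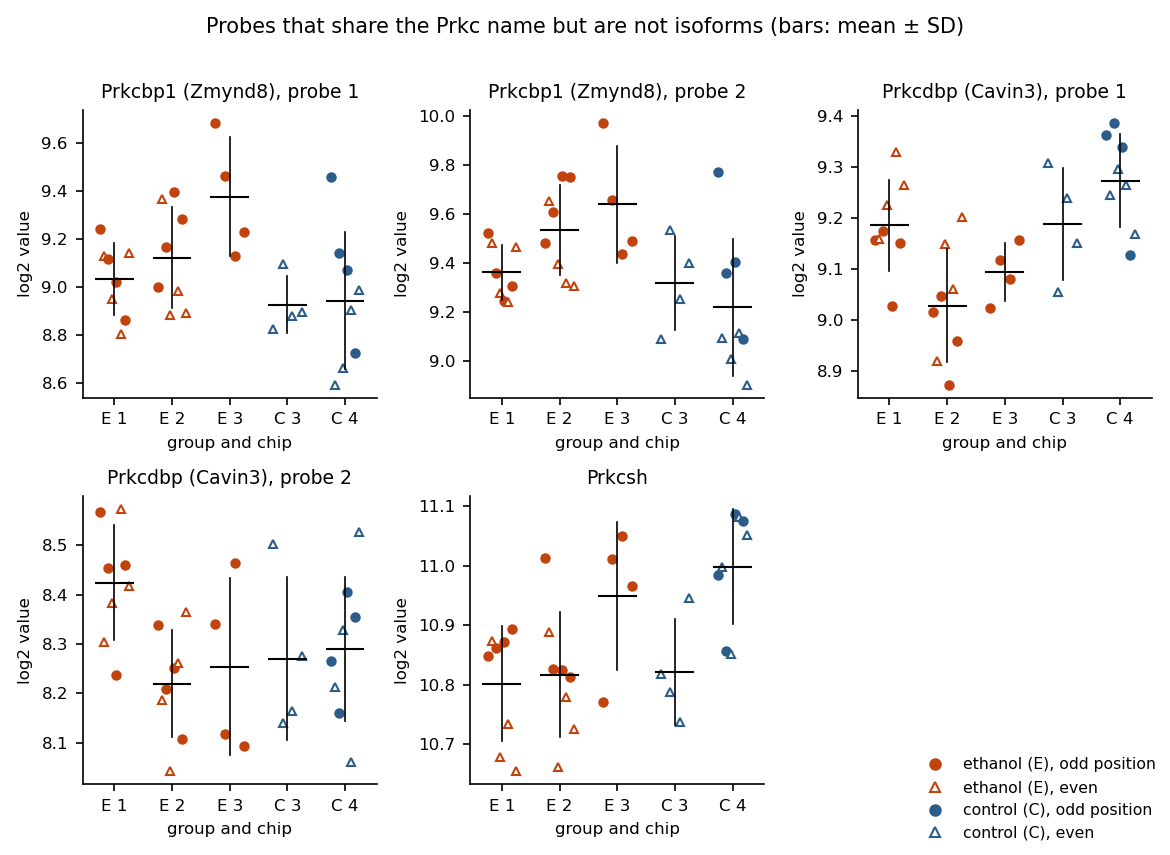
Normalized log2 values of the 5 probes of genes that share the Prkc name, by treatment and chip as for the isoforms (probe 1 is the downstream and probe 2 the upstream probe of each gene); bars are the mean and SD of each set. Prkcbp1 probe 1 on chip 3 has all ethanol-treated mice (9.13 to 9.68) above all controls (8.82 to 9.10), and Prkcsh is highest in the controls of chip 4 but not in those of chip 3.

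To see which transcripts varied together among mice, values were centred within each of the 8 sets of the same treatment, chip and position. These correlations describe 32 arrays, share array quality and dissection, and were not tested. The Prkcbp1 probes correlated at 0.83 with each other. Prkce correlated with them at 0.73 (downstream) and 0.61 (upstream), and Prkcb at 0.48 and 0.58. The Prkcz probes correlated at 0.56 (variant 1 record and variant 2), 0.33 (variant 1 record and shared) and -0.08 (variant 2 and shared). Prkcb and Prkce correlated at 0.41.

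For each isoform, the 3 genes outside the family with the highest correlation of such centred values were taken. For Prkce these were Vezt (0.88), Tbl1x (0.81) and Trim2 (0.80), and 3.88% of all genes exceeded 0.5. For Prkcb they were Rbak (0.74), Csnk2a2 (0.73) and 4930519N13Rik (0.72), and 2.65% of all genes exceeded 0.5. For Prkcd they were Gbp2 (0.73), Slc30a1 (0.69) and Wdr33 (0.69), with 0.846% above 0.5. For the shared Prkcz probe they were Cuta (0.69), Pias1 (0.64) and Sfmbt1 (0.62), with 0.316% above 0.5.

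The genes around PKC were taken from 6 lists of 75 genes, of which 69 were on the array and 54 were tested, each by its brightest tested probe. Of the 54, 5 passed an FDR of 1%, of which 3 were higher with ethanol, beside 3.04% of all 7926 genes tested, and 2 were lower, beside 4.82%. By the 10% rule 13 passed. Of these 13, 7 were higher with ethanol, beside 7.08% of all genes, and 6 were lower, beside 8.98%. The median difference of the 54 was 0.01, against -0.01 over all genes. On chip 3, 1 of the 54 passed an FDR of 1%, beside 3.39% of all genes. The same shares are the background of each list's counts, and in a list of 6 to 11 genes a single call already lies above them.

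Upstream, Gq and the phospholipases C make diacylglycerol. Of 10 tested genes, 0 were higher and 1 was lower at an FDR of 1%, with a list median of 0.0037. Plch2, a neuronal phospholipase C, ran from 9.63 to 10.17 with ethanol (median 9.85) and from 9.82 to 10.20 in controls (median 10.06). Of the 20 ethanol-treated mice, 2 lay above the control median, and Plch2 fell by 0.20 (standard error 0.05, adjusted p = 0.007 by limma). On chip 3 its difference was -0.11 (adjusted p = 0.497 by limma), and with median scaling -0.12 (adjusted p = 0.357 by limma).

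Diacylglycerol kinases end the signal by turning diacylglycerol into phosphatidic acid. Of 6 tested, 1 was higher and 0 lower at an FDR of 1%, and 3 were higher and 1 lower by the 10% rule, with a list median of 0.11. Dgkh, the eta form, ran from 7.74 to 8.29 with ethanol and from 7.62 to 8.02 in controls. Of the ethanol-treated mice, 19 of 20 lay above the control median, and Dgkh rose by 0.19 (standard error 0.05, adjusted p = 0.00439 by limma). With median scaling Dgkh differed by 0.22 (limma, adjusted p = 0.0113). On chip 3 the list median was 0.0024 and the difference of Dgkh was 0.03 (adjusted p = 0.828 by limma).

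Other proteins that bind diacylglycerol include protein kinase D, the RasGRP exchange factors and the Munc13 priming factors of synaptic vesicles. Of 7 tested, 1 was higher and 0 lower at an FDR of 1%, with a list median of 0.05. Prkd3, protein kinase D3 and a relative of Prkcm, ran from 8.46 to 8.92 with ethanol (median 8.71) and from 8.24 to 8.56 in controls (median 8.52). Prkd3 rose by 0.22 (standard error 0.04, adjusted p = 0.000531 by limma), and by 0.28 with median scaling (adjusted p = 0.00617 by limma). On chip 3 the ethanol-treated mice ran from 8.56 to 8.83 and the controls from 8.42 to 8.55, with no overlap and a difference of 0.24 (adjusted p = 0.0407 by limma). Prkd3 was lower by 0.13 at even positions within chips 1, 2 and 4 (adjusted p = 0.0454 by limma).

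Of 10 tested kinases, chaperones and phosphatases that prime PKC or switch it off, 0 passed an FDR of 1% in either direction by limma. At an unadjusted p below 0.05 there were 2445 of all 7926 genes and 1 of these 10. Pdpk1, the kinase that phosphorylates the activation loop, was that one. It ran from 8.59 to 9.56 with ethanol (median 8.85) and from 8.40 to 9.14 in controls (median 8.57), and all 20 ethanol values exceeded the control median, with a difference of 0.30 (limma, adjusted p = 0.024). On chip 3 it was 0.37, with groups that touched at 8.67 and 8.68. Between even and odd positions Pdpk1 fell by 0.38 (adjusted p = 0.00442 by limma).

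Anchors and scaffolds hold PKC at its sites of action. Of 10 tested, 0 passed an FDR of 1% by limma and 3 had an unadjusted p below 0.05, beside 2445 of all 7926 genes. The one of lowest p, Akap12, gave -0.15 (adjusted p = 0.0749 by limma).

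The substrates of PKC had 1 of 11 tested genes higher and 1 lower at an FDR of 1%, with a list median of -0.05. Add3, gamma adducin, links spectrin to actin and is phosphorylated by PKC. It ran from 10.57 to 11.10 with ethanol (median 10.78) and from 10.34 to 10.74 in controls (median 10.49), with all 20 ethanol-treated mice above the control median. Add3 rose by 0.27 (standard error 0.05, adjusted p = 0.000199 by limma), and with median scaling it differed by 0.34 (limma, adjusted p = 0.0122). On chip 3 the ethanol-treated mice ran from 10.71 to 10.81 and the controls from 10.34 to 10.50, with a difference of 0.32 (adjusted p = 0.00495 by limma). Its position difference was -0.12 (adjusted p = 0.119 by limma).

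Nrgn, neurogranin, a calmodulin-binding protein of dendritic spines that PKC phosphorylates, was lower. It ran from 12.39 to 12.90 with ethanol (median 12.65) and from 12.63 to 13.04 in controls (median 12.80). Nrgn fell by 0.17 (standard error 0.04, adjusted p = 0.00641 by limma), and 2 of the 20 mice on ethanol exceeded the control median. On chip 3 its difference was -0.05 (adjusted p = 0.689 by limma), and with median scaling it was -0.11 (adjusted p = 0.306 by limma).

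**Figure D5:**
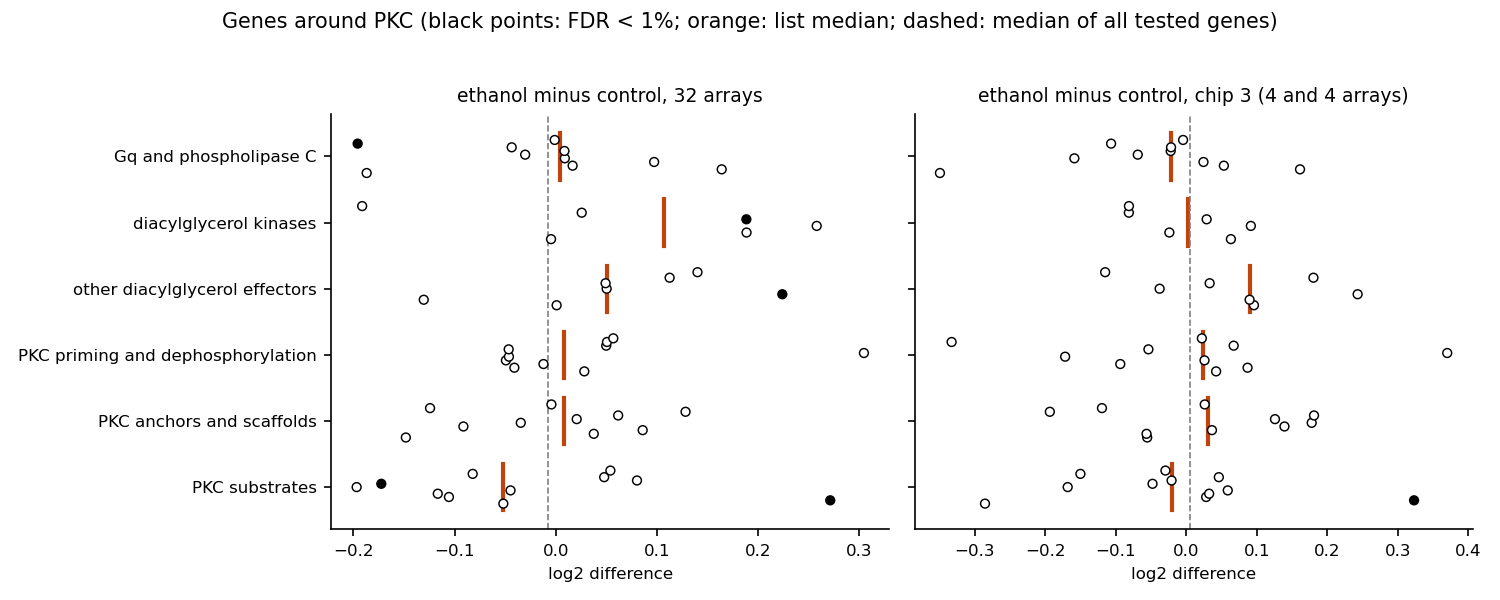
Log2 differences, ethanol minus control, of the 54 tested genes of 6 lists around PKC on all 32 arrays and on chip 3; each point is a gene, black points passed an FDR of 1%, the orange line is the list's median and the dashed line the median of all tested genes. On all arrays 5 points are black (Plch2, Dgkh, Prkd3, Nrgn and Add3), and on chip 3 Add3 is the black one.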

How the data were processed

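Intensities (the mean signal of the beads of a probe, on a linear scale and not normalized) were deposited by the authors, together with a detection p-value per probe and array. The authors deposited other values beside them, namely each probe's bead number and the error over its beads. Background handling and array software are not given in the sources used here; the submitters' processing notes name lumi and limma. All value columns matched a labelled mouse.

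Signals were variance-stabilized after lumi from the bead errors and quantile-normalized, giving log2 values, and compared with limma 3.58.1 in R 4.3.3 with data.table (version 1.17.8), without covariates and with Benjamini-Hochberg adjustment over the 10187 probes detected (p-value below 0.01) on at least 24 of 32 arrays (7926 genes). Calls were made at an FDR below 1%, or below 10% with at least a 1.1-fold change. The arrays, 20 and 12, set the precision. Mice were taken as the replicates, and levels were not compared between probes. Position is odd (A, C, E, G) or even; its test has chip as a block. Gene symbols were updated through RefSeq (GRCm38.p6). Probe coordinates in the table carry no stated build and are not printed.

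Members, gene lists and tests were chosen with earlier results of these data known. Named genes are the Prkc probes; of each list those passing an FDR of 1% (at most 4), or else the one with the lowest p; and the 3 genes most correlated with each isoform. Of the matches, 1 probe and a few listed genes are not reported here, and counts over the Prkc probes leave that probe out. The fit was tested on simulated data without chip or position effects. That test cannot show how the fit behaves where treatment is bound to chip or position. Alternatives were log2 signals, normexp background (offset 16), median scaling, other filters, chip blocks, position, array weights and leaving out mice. Figures were drawn in Python 3.11.15 with numpy 2.4.6, pandas 2.3.3 and matplotlib 3.10.9.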

Additional observations from a re-analysis of the deposited data

Results flagged for a closer look

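In the Prkcz probe on the variant 1 record, ethanol-treated mouse 46 on chip 3 stood apart from the other 3 of its set. It read 10.32, the next mouse read 10.49 and the highest 10.50, so the gap was 0.921 of the whole range of the set. Of 55 sets examined, 1 was marked in this way, and chance marks about 1 set in 20.

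Prkcsh differed between the comparison within chip 3 and the comparison between chips. The difference on chip 3 (0.13) minus that between chips 1 and 2 and chip 4 (-0.19) was 0.3165 (adjusted p = 0.0195 by limma). With treatment bound to position on chip 3 and to chip elsewhere, their parts cannot be told apart.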

How the results depend on the processing

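Over all arrays, 1 of the Prkc probes passed an FDR of 1% and 5 the 10% rule. The first count was 0 with median scaling, with chip as a fixed block, with chip as a random block, and with that fixed block and position. With median scaling 146 of all tested probes passed an FDR of 1%, against 835 as reported. The first count was 1 to 2 when single mice were left out (2 without ethanol mouse 20, control 54 or control 57). The count by the 10% rule was 1 with chip as a fixed block, 3 with a random block, 3 with position as a covariate, 0 with fixed block and position, and 2 to 6 without single mice, 2 being without control 64. In alternatives chosen after seeing the data, the 1% and 10% counts were 3 and 5 without the 8 arrays of chip 3, 0 and 0 at even positions only, and 0 and 2 at odd positions only. The Prkce difference reversed to -0.0422 with chip as a fixed block and to -0.31 with position added. On chip 3 (1 and 2 probes), the counts were 0 and 1 with normexp background, with median scaling and with all probes of the array, and 0 to 1 and 1 to 2 without single mice. Of all tested probes on chip 3, 0 passed an FDR of 1% with normexp background and 279 with median scaling, against 332 as reported. Between chips (3 and 5), the Prkc counts were 1 with median scaling at 1%, and 0 and 2 at odd positions only. Of all tested probes between chips, 609 passed an FDR of 1% with median scaling, against 1193 as reported. For position (0 and 4), the Prkc counts were 0 by both rules with median scaling. Of the listed genes around PKC (5 and 13), 1 and 6 passed with median scaling and 0 and 5 with chip as a fixed block. For the other alternatives no share over all probes or genes is given, so those counts have no background beside them. The causes of these changes were not tested. Some of the fits hold fewer arrays, and with chip as a fixed block the difference rests on chip 3. No paired analysis was possible because the groups share no mouse numbers.

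Over 14 alternatives to the fit on all arrays, Prkcb kept its sign, from 0.01 to 0.28, and Prkce lost it in 2. Signal over background limits what can be said of Prkca, Prkch, Prkci, Prkcm and Prkcq, and of Prkcd, whose signal overlapped that of Prkca.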
